A study of Mus musculus with 31 samples.

Results

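The comparison described here set polysomal against monosomal messenger RNA in the neocortex of HuR conditional knockout (cKO) mice on the day of birth (P0), gene by gene. Its members were the 5 libraries labelled HuR cKO, P0 and either polysome (3 libraries) or monosome (2 libraries), of 31 libraries in the series. HuR is the RNA-binding protein encoded by Elavl1. The labels name neither the Cre driver nor the exons removed, give no strain, and do not say that the libraries came from separate animals. Every p-value therefore reflects how much libraries varied within their groups, pooled over all groups of a fit, which may be technical variation. The other libraries came from HuR cKO and wild-type (WT) neocortex at embryonic day 13 (E13) and P0, as monosome, polysome and total RNA. Those compared beside the main comparison were 3 monosome and 3 polysome libraries of E13 cKO and 3 and 3 of P0 WT. In the main fits the spread was pooled over all 16 cKO libraries, or over all 31 libraries for WT and the genotype difference. The libraries are called monosome c0 and c1 and polysome c0, c1 and c2, after the numbers of their columns.

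Ribosomes on a messenger RNA make it sediment faster in a gradient, so that an mRNA read by several ribosomes at a time travels with the polysomes. An mRNA with a single ribosome, or bound only to a small subunit, stays near the top. HuR (ELAVL1) binds AU- and U-rich stretches, mostly in untranslated regions, and is known as a regulator of mRNA stability and translation. In the newborn neocortex most neurons have been born and are extending axons and dendrites, and radial glia are turning to the production of glia.

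Neocortices were lysed with cycloheximide, which holds ribosomes in place, and the lysate was spun through a gradient and cut into 14 fractions. The monosome pool joined fractions 4, 5, 6 and 7, described as the region of the 40S, 60S and 80S particles, and the polysome pool joined fractions 9, 10, 11 and 12. The monosome pool therefore holds free small and large subunits as well as single ribosomes. The protocol describes gradient tubes of 2 sizes, and which was used for a library is not given. Values are FPKM, fragments scaled to transcript length and library size, which compare genes per length. A log2 difference below is polysome minus monosome on the log2(FPKM + 1) scale with its standard error (SE), and "higher" or "lower" means called by limma at an adjusted p under 0.05.

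The deposited values summed to 1003432 to 1130655 FPKM in the monosome libraries and 485791 to 521151 in the polysome libraries. Between 15931 and 16566 genes lay above 0 in each of the 5 libraries. Because the authors' scaling had brought the median gene of all libraries in the cKO table within 0.041 on the log2 scale, each difference is relative to the median gene and not an absolute amount of RNA. The monosome libraries correlated at r = 0.9892 with each other and the polysome libraries at 0.9852 to 0.9908 (log2 scale, across 12302 genes, which are not independent replicates). The tables hold no read counts, so the depth of each library is unknown and values carry no interval for counting error.

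Elavl1, the targeted gene (chr8:4285382-4325413 in GRCm38, minus strand, 6 exons), was measured in all 5 libraries. Its level was 29.9 and 24.5 FPKM in monosome c0 and c1 and 16, 19 and 22.6 in polysome c0, c1 and c2. All polysome values lay below both monosome values, but the log2 difference of −0.49 (SE 0.23) did not pass (limma adjusted p 0.0915). It passed when the 5 libraries were fitted alone (adjusted p 0.0212). In WT at P0 the order of the fractions was the opposite, with 10.3 ± 2.01 FPKM in monosomes and 23.2 ± 2.62 in polysomes (SD, n = 3 each), a log2 difference of 1.11 (SE 0.26, limma adjusted p 0.000754). The 2 genotypes' differences were −1.60 apart (SE 0.40, limma unadjusted p 0.000395), which was not a call after adjustment (limma adjusted p 0.863). This unadjusted p was the smallest of 12233 genes tested for a genotype difference. Neither the −1.60 nor the WT difference is corrected for the median over all genes, which was −0.292 for the genotype difference and 0.296 in WT. At E13 the cKO libraries held 82.0 ± 1.92 FPKM in monosomes and 29.4 ± 0.918 in polysomes (SD, n = 3 each), a difference of −1.45 (SE 0.21, adjusted p 2.39e-05). FPKM summed over a gene cannot tell remaining from removed exons, so these levels neither check the cKO labels nor measure the loss of the protein, and "cKO" below means the libraries so labelled. The 3 neuronal relatives, named after their values were seen, were Elavl2 (0.37), Elavl3 (−0.16) and Elavl4 (−0.30), none of them called.

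Across all genes the 2 pools of the P0 cKO neocortex differed widely and in both directions. Of 12302 genes tested, 6008 were called (48.8%), of which 3081 were higher in polysomes (25.0%) and 2927 lower (23.8%), with a median log2 difference of −0.001 over all genes. The larger differences were on the monosome side. Lower genes passed 2 on the log2 scale 711 times and 3 on that scale 172 times, against 231 and 4 times for higher genes. In 9684 genes (78.7%) the polysome and monosome libraries did not overlap. Genes named below for the size of their P0 difference were chosen among these, so a lack of overlap in them is no separate result. Leaving out 1 library at a time gave 4156 calls without monosome c1 to 5341 without polysome c0.

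**Figure D1:**
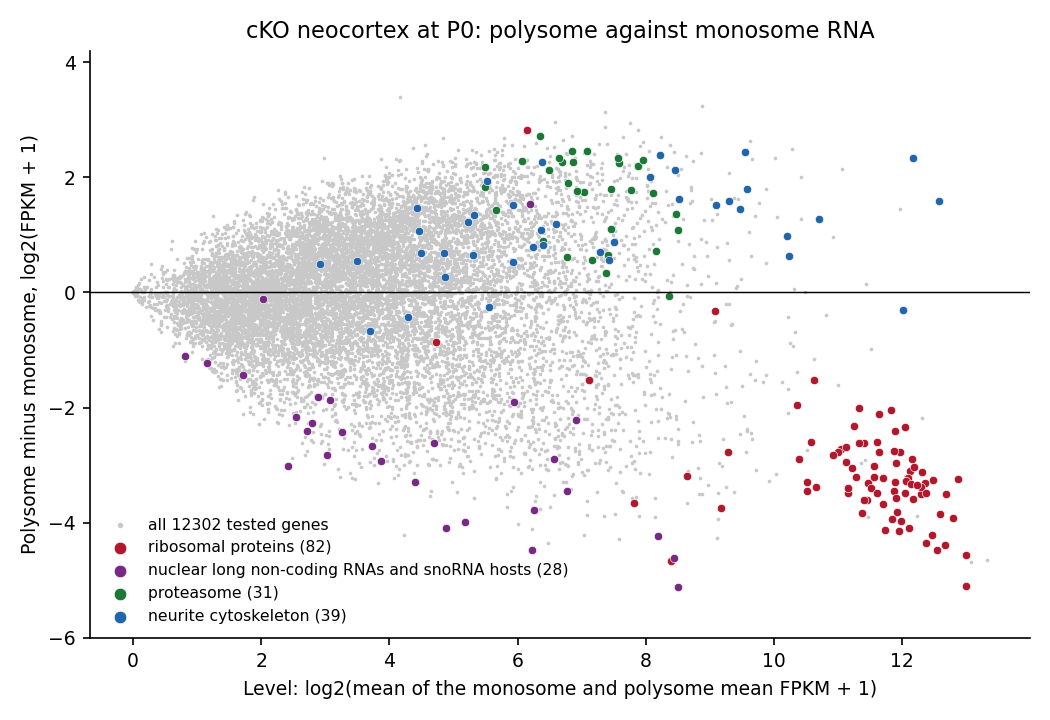
Each point is 1 of 12302 genes, with the log2 level (mean of the monosome and polysome mean FPKM, plus 1) on the x axis and the log2 polysome minus monosome difference on the y axis. The 82 ribosomal protein genes lie at the high right and almost all far below 0, non-coding RNAs and small nucleolar RNA hosts lie below 0 over a range of levels, and proteasome and neurite cytoskeleton genes lie mostly above 0; 3 genes fall outside the axes.

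The ribosomal protein mRNAs, which build the ribosome itself, sat in the monosome pool almost as a block. Of 49 large-subunit genes 46 were lower in polysomes and 1 higher (median −3.24), and of 33 small-subunit genes 32 were lower and none higher (median −3.31), beside a median of −0.001 and 23.8% lower over all genes. Their summed FPKM made up 48.7% and 46.2% of monosome c0 and c1 and 11.1%, 10.6% and 9.39% of polysome c0, c1 and c2. The counts of 46 and 32 were the same without each of the 5 libraries in turn. Many of these genes have processed pseudogenes of near-identical sequence, so that reads may be shared between copies, and the values of single genes are uncertain to that extent.

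Rps12, a small-subunit protein (chr10:23785183-23787275, minus strand, 6 exons), stood at 17063 and 14535 FPKM in monosome c0 and c1 and at 702, 396 and 350 in polysome c0, c1 and c2. The mean was 32.7-fold lower in polysomes, a log2 difference of −5.10 (SE 0.45, limma adjusted p 2.06e-07). Rpl41, a large-subunit protein of 25 residues, stood at 17521 and 13782 FPKM against 865, 677 and 491 (−4.56, SE 0.43). In both genes the lowest monosome value was more than 10-fold above the highest polysome value. Rps28 (−4.39), Rps20 (−4.35), Rps29 (−4.48), Rps21 (−4.15), Rpl39 (−4.21), Rpl31 (−3.82) and Rpl22l1 (−3.74) were lower by similar amounts.

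Rpl26 was the exception, the ribosomal protein gene called in the other direction. Its level was 16.6 and 15.9 FPKM in the monosome libraries and 108, 155 and 106 in the polysome libraries, a log2 difference of 2.83 (SE 0.40, limma adjusted p 1.7e-05). Its listed level in monosomes was far below that of the other ribosomal protein genes named here, and E13 gave 2.35. The 3 members not called, named after their values were seen, were Rps27 (−4.67, SE 2.28), Rpl34 (−0.86) and Rpl36al (−0.33). Rps27 was listed at 399 and 842 FPKM in monosomes and at 82.1, 61.6 and 1.27 in polysomes, so its libraries did not overlap but scattered widely.

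Most ribosomal protein mRNAs are known to start with a C followed by a run of pyrimidines, the terminal oligopyrimidine (TOP) tract through which mTOR signalling sets their translation. The RefSeq starts (GRCm38.p6) of the 10 ribosomal protein and TOP genes chosen by call strength that have an entry are printed to show what the annotation holds there, with 10 bases before the annotated start and 20 from it. Capitals mark a run of C followed by at least 4 bases that are C or T, beginning at or after the annotated start and read on the transcript's strand only; runs that begin before it are not marked.
Rps21, chr2:180257369-180257398, plus strand: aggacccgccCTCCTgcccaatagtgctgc
Rpl22l1, chr3:28805498-28805527, plus strand: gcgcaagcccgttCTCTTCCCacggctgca
Rpl39, chrX:37085203-37085232, minus strand: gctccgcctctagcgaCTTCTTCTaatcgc
Rps12, chr10:23787190-23787219, minus strand: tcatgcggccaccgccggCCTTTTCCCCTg
Rpl41, chr10:128549149-128549178, minus strand: gggccggctcggaagtgacgacaccgagca
Rpl31, chr1:39367841-39367870, plus strand: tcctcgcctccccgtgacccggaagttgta
Rps28, chr17:33824543-33824572, minus strand: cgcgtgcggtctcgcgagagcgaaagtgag
Tpt1, chr14:75845246-75845275, plus strand: cgctgacgacagttccgggggagccgcgga
Eef1b2, chr1:63176821-63176850, plus strand: ctgcagttccgccggaagtagccgaggcct
Eef1a1, chr9:78481705-78481734, minus strand: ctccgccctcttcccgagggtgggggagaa
The run begins at base 1 of the transcript in Rps21 (a second RefSeq start of this gene has none), at base 4 in Rpl22l1, at base 7 in Rpl39 and at base 9 in Rps12. The other 6 genes have no such run beginning in the 20 bases from the annotated start.

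Of 9763 tested genes with a RefSeq start, 298 had the run beginning at the first base, and 14 of these were among the 61 ribosomal protein genes with an entry. The 298 genes had a median log2 difference of −0.16, with 17.1% higher and 35.6% lower. The 9465 others had a median of 0.01, with 25.8% higher and 23.4% lower. Without ribosomal protein genes, 284 genes with the run had a median of −0.11 and 32.7% lower. The run at the start was present in 494 of all 17540 genes with an entry (2.82%). These shares describe annotated starts, which can lie some bases from the start in use.

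Other mRNAs of the textbook TOP class followed the ribosomal proteins, with 14 of 18 lower and 1 higher (median −2.20). Of all genes 23.8% were lower and 25.0% higher. Tpt1, the translationally controlled tumour protein (chr14:75845093-75848525, plus strand), was listed at 21754 and 17722 FPKM in monosomes and 1017, 732 and 650 in polysomes (−4.64, SE 0.43, limma adjusted p 3.26e-07). Pabpc1, the cytoplasmic poly(A)-binding protein, fell from 1076 and 1020 to 76.0, 53.2 and 37.6 (−4.27, SE 0.40). In each of the 2 genes all monosome values were above all polysome values by more than 10-fold. Tpt1 encodes 172 residues and Pabpc1 636.

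Eef1a1, the elongation factor that brings charged tRNAs to the ribosome and also a TOP mRNA, is the 1 member called higher. An exact 0 in a table without counts can be a failed estimate, so this call is not read as a difference, and without it the TOP list has 0 members higher. It was listed at 0 in both monosome libraries and at 3502, 2456 and 2530 FPKM in the polysome libraries. The same gene stood at 14665 FPKM in E13 cKO monosomes, and P0 WT monosomes also list it at 0. No fold is given against a group listed at 0. Of 32 tested genes listed at 0 in every library of a P0 cKO pool, 3 were called, Eef1a1 and the small nucleolar RNAs Snora28 and Snora2b.

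**Figure D2:**
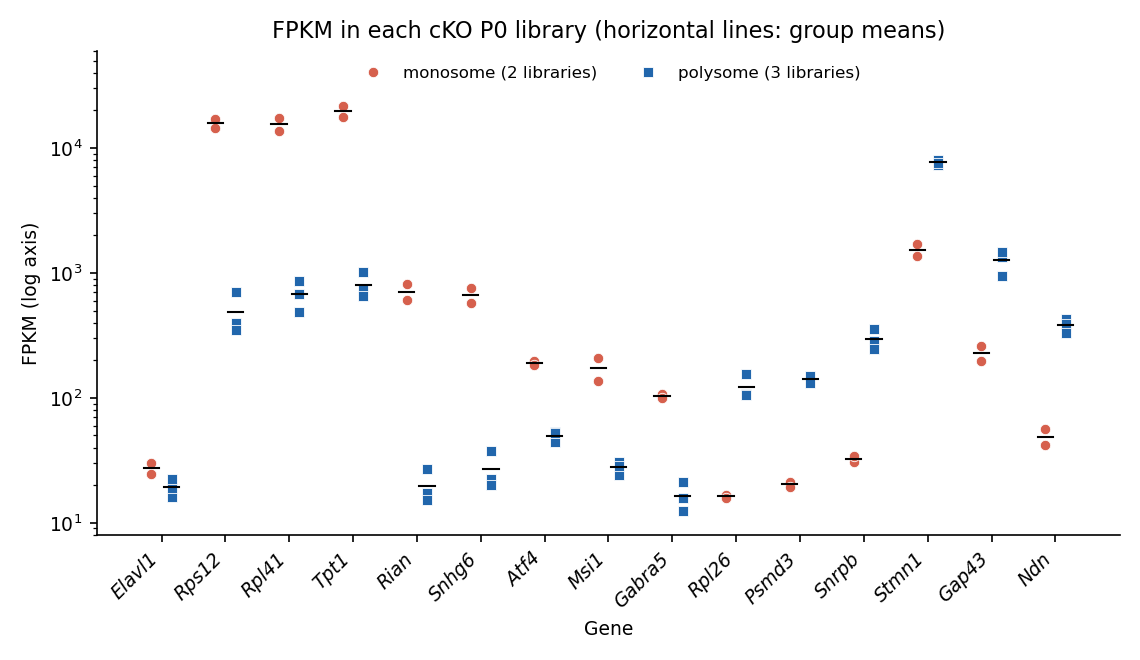
FPKM on a log axis for 15 genes in the 5 libraries, with circles for monosome c0 and c1, squares for polysome c0, c1 and c2 and lines for the means. The circles and squares do not overlap in any of the 15 genes, which was a condition of choice for those named by size. Elavl1 is the closest pair of groups, and Rps12, Rpl41, Tpt1, Rian and Snhg6 lie more than 10-fold apart.

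Transcripts that code for no long protein were also on the monosome side. Of 11 long non-coding RNAs, listed as nuclear though their place in the cell was not measured, 9 were lower and 1 higher (median −1.82). That median was −2.82 with a pseudocount of 0.1 and −1.09 with 5. Of 17 hosts of small nucleolar RNAs 16 were lower and none higher (median −2.89). Of all genes 23.8% were lower and 25.0% higher. Rian, an imprinted non-coding RNA (chr12:109603940-109661716, plus strand), was listed at 603 and 813 FPKM in monosomes and 26.7, 17.4 and 15.1 in polysomes. Its mean was 35.9-fold lower, a log2 difference of −5.12 (SE 0.29, limma adjusted p 3.64e-09). H19 (−4.47), Neat1 (−3.02) and Malat1 (−2.83) were lower too.

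Among the small nucleolar RNA hosts, whose introns carry the guides of ribosomal RNA modification, Snhg6 was at 759 and 573 FPKM in monosomes and 37.8, 22.6 and 20.1 in polysomes (−4.62, SE 0.41). Gas5, itself a known TOP transcript, was at 62.6 and 46.7 against 2.74, 2.11 and 1.94 (−4.09, SE 0.38). The pools did not overlap in Gas5 or, by the rule of choice, in Snhg6. Peg13, an imprinted non-coding RNA, was called the other way, with 38.2 and 34.9 FPKM in monosomes and 96.6, 104 and 124 in polysomes (1.53, SE 0.25, adjusted p 8.2e-05). By GENCODE M21 biotype, 54.7% of 274 long non-coding genes were lower and 4.01% higher (median −0.96), against 22.9% and 25.8% of 11824 protein-coding genes (median 0.02). The 11 higher ones include Cct6a, a chaperonin subunit whose gene has a non-coding biotype in that annotation.

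The length of the encoded protein went with the position in the gradient at its short end. In 252 genes encoding under 100 residues the median log2 difference was −1.36, and 65.5% were lower and 3.97% higher. Genes of 100 residues or more but under 200 had a median of −0.39, with 39.4% lower. From 200 residues on the medians lay between −0.02 and 0.15. Without the ribosomal protein genes the shortest class still had a median of −1.30. Over 11823 genes, 96.1% of those tested, Spearman's rho between difference and protein length was 0.158 and Pearson's r with log2 length 0.205, described across genes that share the same 5 libraries. The same shortest class had a median of −1.76 at E13.

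**Figure D3:**
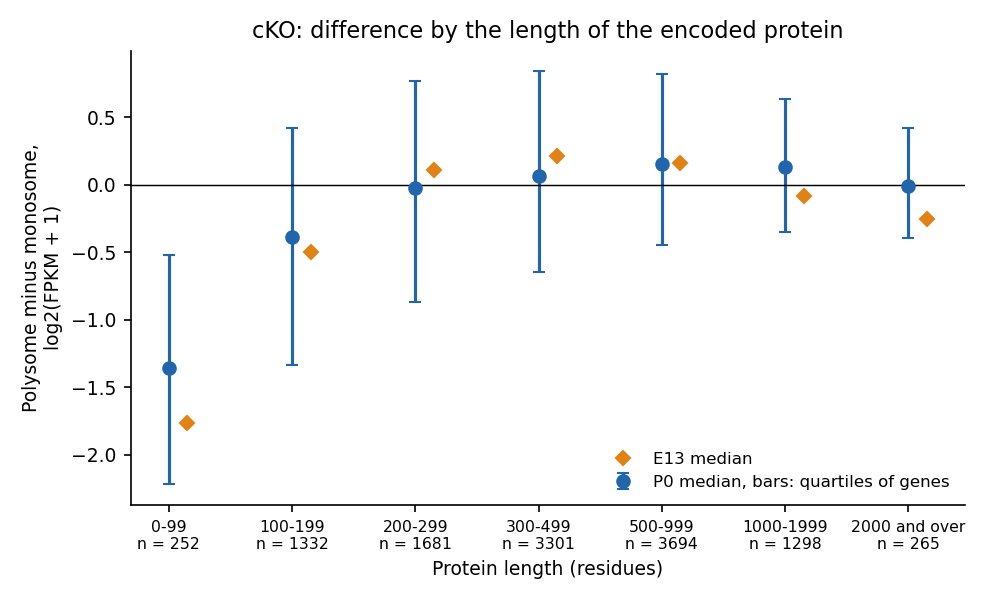
Median log2 polysome minus monosome difference in 7 classes of encoded protein length, with bars for the P0 quartiles and diamonds for the E13 medians. The class under 100 residues lies at −1.36 at P0 and −1.76 at E13, and the classes from 200 residues up lie close to 0.

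In some gene lists the members higher in polysomes encoded longer proteins than the lower ones, and in others they did not. Of 52 spliceosome genes, a list added after values were seen, 30 were higher and 5 lower (median 1.27). Of all genes 25.0% were higher and 23.8% lower. The higher spliceosome genes encoded a median of 436 residues and the lower ones 92. Snrpb, a core protein of the splicing snRNPs (chr2:130171414-130179403, minus strand, 231 residues), was at 30.9 and 34.1 FPKM in monosomes and 284, 353 and 248 in polysomes. Its mean was 9.07-fold higher in polysomes, a log2 difference of 3.13 (SE 0.36, limma adjusted p 1.83e-06). Snrpg, another core protein but of 76 residues, was at 2027 and 1746 FPKM against 240, 249 and 157 (−3.15, SE 0.37). The pools did not overlap in either gene, which for Snrpb was a condition of its choice. Length did not order every pair, since Snrpd3 with 126 residues was higher (2.70).

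Oxidative phosphorylation genes of the nucleus counted 17 of 74 higher and 25 lower (median −0.07; 11 higher without monosome c1), beside 25.0% and 23.8% of all genes, with median lengths of 263 and 99 residues. Cox8a, a small subunit of cytochrome oxidase, stood at 878 and 735 FPKM in monosomes and 112, 94.2 and 83.2 in polysomes (−3.06, SE 0.32). Atp5b, the catalytic subunit of ATP synthase, stood at 265 and 221 FPKM in monosomes and 974, 1037 and 1053 in polysomes (2.07, SE 0.31). The 2 genes thus had opposite orders of pools, each without overlap. Mitochondrial ribosomal proteins counted 19 higher and 8 lower of 60 (306 and 147.5 residues; 5 lower without either monosome library), and selenoproteins 6 and 7 of 17 (513 and 201 residues). Other lists did not have this order: the higher and lower members had medians of 545 and 545.5 residues in chaperones, 482 and 487 in RNA-binding proteins, 310 and 356.5 in initiation factors, 309 and 492.5 in HuR targets and 293 and 2814 in synaptic vesicle genes, where 2 were lower.

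Genes of the proteasome, which degrades ubiquitin-tagged proteins, were on the polysome side, with 27 of 31 higher and none lower (median 1.79). Without 1 library 23 to 26 were higher. The counts of this paragraph are read beside 25.0% higher and 23.8% lower of all genes. Psmd3, a subunit of its regulatory particle, was at 21.3 and 19.5 FPKM in monosomes and 139, 150 and 132 in polysomes (2.72, SE 0.29, limma adjusted p 9.69e-07). Psmd7 (2.46), Psmc5 (2.47) and Psmd6 (2.13) were higher by like amounts. Cytosolic aminoacyl-tRNA synthetases, which charge tRNAs, counted 15 higher and 1 lower of 20 (median 1.27; 10 to 13 higher without 1 library). Qars, the glutaminyl enzyme, was the lower one, at 109 and 103 FPKM in monosomes against 19.1, 18.9 and 20.4 in polysomes (−2.38, SE 0.22), with no overlap.

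The translation factors themselves did not move one way, and their counts are read beside 25.0% higher and 23.8% lower of all genes. Of 44 initiation factor genes 14 were higher and 14 lower (median 0.09; 8 higher without monosome c1). Eif3f, a subunit of the eIF3 scaffold, was at 1579 and 1447 FPKM in monosomes against 215, 161 and 163 in polysomes (−3.08, SE 0.32), and Eif3e was lower by a like amount (−2.97). Eif4a3, a helicase of the exon junction complex, was at 25.4 and 25.2 FPKM against 151, 152 and 146 (2.52, SE 0.26). Eif4ebp2, the repressor of cap-dependent initiation in neurons, was lower (−2.60). Among elongation and termination factors 11 of 21 were higher, 10 of them without Eef1a1, and 4 lower. Eef2, the translocase, was at 4645 and 5009 FPKM in monosomes and 771, 564 and 597 in polysomes (−2.92, SE 0.30).

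Of 15 genes of the integrated stress response 3 were higher and 3 lower, each below the share of all genes (25.0% higher and 23.8% lower). Atf4 (chr15:80255184-80257541, plus strand) encodes a transcription factor whose mRNA has upstream reading frames known to hold back the main frame in unstressed cells. It was at 197 and 182 FPKM in monosomes and 44.3, 53.0 and 52.5 in polysomes (−1.90, SE 0.27, limma adjusted p 2.15e-05). Its target Ddit3, which also carries an upstream frame, was at 40.7 and 43.4 against 7.98, 10.0 and 9.08 (−2.11, SE 0.32). Both genes were lower in every polysome library than in either monosome library. The kinase gene Eif2ak1 (1.80) and Asns (1.88), a metabolic target of ATF4, were higher.

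Genes known as HuR targets were found on both sides, 13 of 34 higher and 6 lower (median 0.33; 9 to 11 and 5 without 1 library), beside 25.0% and 23.8% of all genes. Gap43, a growth cone protein whose mRNA is a classical target of the ELAV family, was at 230 ± 44.2 FPKM in monosomes (SD, n = 2) and at 1340, 1480 and 953 in polysome c0, c1 and c2, all higher than both monosome values (2.43, SE 0.33; limma, adjusted p 1.04e-05). Actb, beta-actin, was higher by 2.33. Xiap, an inhibitor of caspases, was at 52.0 and 52.7 FPKM in monosomes and 8.49, 6.63 and 7.08 in polysomes (−2.67, SE 0.26), and Msi1 was lower by a like amount. The targets named thus included pairs of opposite order with no overlap between pools. Whether they respond to HuR is not shown by a comparison in which both pools are labelled cKO.

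Of 44 genes for RNA-binding proteins of the developing neocortex, 11 were higher and 12 lower, near the 25.0% and 23.8% of all genes. Their median was −0.25, with 7 higher and 6 lower without monosome c1 and 6 lower without monosome c0. Msi1, Musashi, which represses translation in neural progenitors (chr5:115429599-115455698, plus strand), was at 136 and 208 FPKM in monosomes and 30.6, 24.3 and 28.4 in polysomes (−2.56, SE 0.29, limma adjusted p 1.67e-06). Hnrnpd, an AU-rich element binding protein, was at 24.5 and 15.6 FPKM against 84.2, 91.9 and 79.7 (2.07, SE 0.24). The pools did not overlap in either gene. G3bp2 (1.75) and Fxr2 (1.78) were higher.

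**Figure D4:**
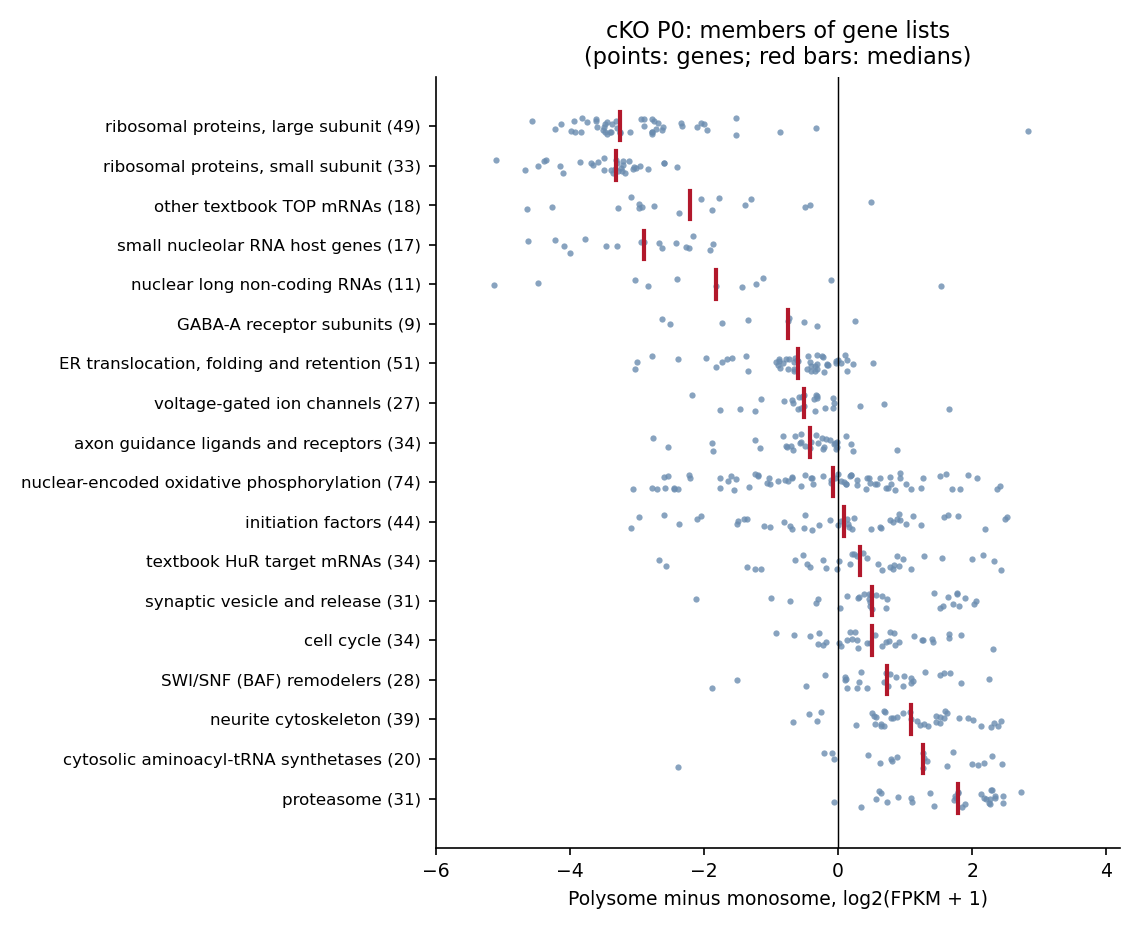
Log2 polysome minus monosome difference of each tested member of 18 gene lists, with a red bar at the list's median. Ribosomal proteins and small nucleolar RNA hosts lie near −3, proteasome and neurite cytoskeleton genes mostly above 0, and HuR targets on both sides. Eef1a1 lies outside the axis.

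Among neuronal genes, those of the neurite cytoskeleton were on the polysome side, with 26 of 39 higher and none lower (median 1.09). Of all genes 25.0% were higher and 23.8% lower. Without monosome c1, 13 of the 39 were higher, beside 2047 of the 12289 genes tested in that setting. Stmn1, a microtubule destabiliser, was at 1709 and 1354 FPKM in monosomes and 7287, 8053 and 7643 in polysomes (2.33, SE 0.31, limma adjusted p 1.08e-05). Stmn4 was higher by 2.39 and Dpysl4, a collapsin response mediator, by 1.94. Klc1, a kinesin light chain, was at 53.7 and 60.4 FPKM in monosomes and 423, 422 and 389 in polysomes (2.83, SE 0.27). All 4 genes were higher in each polysome library than in either monosome library, which for Klc1 was a condition of its choice.

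Receptor and channel genes are read beside 23.8% lower and 25.0% higher of all genes. Of 9 GABA-A receptor subunits 5 were lower and none higher (median −0.74), and of 27 voltage-gated channel genes 7 were lower, a share near that of all genes, and 1 higher (median −0.51; 4 lower without monosome c1). Gabra5, an alpha subunit of the GABA-A receptor (chr7:57407672-57510059, minus strand), was at 108 and 100 FPKM in monosomes and 21.3, 15.8 and 12.4 in polysomes (−2.62, SE 0.33, limma adjusted p 5.15e-06). All 3 polysome values lay below both monosome values. Cacnb1, a cytosolic channel subunit, was higher (1.66). Axon guidance genes counted 6 lower of 34, below the share of all genes, and 1 higher (median −0.41; 0 higher without monosome c0 or polysome c0). They included the ephrins Efna3 (−2.76) and Efna2 (−2.54), both lower.

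Of 31 genes of synaptic vesicles and release 10 were higher and 2 lower (median 0.51; 1 lower without monosome c0, monosome c1 or polysome c0). Stx1a, a SNARE of the plasma membrane, was at 27.1 and 24.8 FPKM in monosomes and 115, 116 and 96.6 in polysomes (2.03, SE 0.24, limma adjusted p 2.48e-06). Slc17a7, the vesicular glutamate transporter, was at 75.1 and 81.3 against 19.4, 16.3 and 16 (−2.12, SE 0.27). These 2 genes of the same vesicle cycle had opposite orders of pools, neither with overlap. Among 30 postsynaptic genes 5 were higher and 4 lower, both below the 25.0% and 23.8% of all genes. Without monosome c1 0 were higher and 2 lower, and without monosome c0, polysome c0 or polysome c2 3, 3 and 2 were higher.

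Of 34 cell cycle genes 13 were higher, none lower and 21 not called (median 0.51), beside 25.0% higher of all genes. Pcna, the replication clamp, was at 44.1 and 32.0 FPKM in monosomes and 186, 202 and 184 in polysomes (2.31, SE 0.24). Subunits of the SWI/SNF remodeler counted 14 higher and 2 lower of 28 (median 0.73; 8 higher without monosome c1). Smarcb1 was higher (2.26), and Dpf1, a subunit of the neuronal form, was lower, at 183 and 231 FPKM in monosomes and 73.3, 67.2 and 74.3 in polysomes (−1.51, SE 0.25). Of 15 genes of iron and polyamine homeostasis 3 were higher and 6 lower (median −0.33), beside 25.0% and 23.8% of all genes. Fth1 (−2.54), Ftl1 (−2.09) and the exporter Slc40a1 (−3.23), whose mRNAs carry an iron-responsive element ahead of the coding region, were lower. Azin1 (1.70), an inhibitor of antizyme, and Aco1 (1.09), which binds such elements, were higher.

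Single genes of the extremes lay outside these lists. Bend6, a BEN-domain repressor, was at 336 and 389 FPKM in monosomes and 25.7, 17.1 and 12.3 in polysomes (−4.28, SE 0.42). Akr1b3, aldose reductase, was listed at 0.000297 and 7.51 FPKM in monosomes and 31.7, 34.2 and 24.0 in polysomes (3.39, SE 0.69), so its monosome level rests on scattered values. Ndn, an imprinted gene of 1 exon known as a neuronal growth suppressor (chr7:62346569-62350262), was at 56.0 and 41.8 against 425, 392 and 331 (2.95, SE 0.31). Aamp (2.95), Rrp1 (2.87), Zwint (2.77) and Nsfl1c (2.71) were also higher.

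Markers of the cell types of the tissue were found on both sides. In a bulk sample fewer cells of a type and less RNA per cell cannot be told apart, and a difference between pools measures neither. Upper-layer neuron markers summed to 733 and 769 FPKM in monosomes and 641, 662 and 605 in polysomes, with 3 of 13 higher and 6 lower (2 lower without monosome c1), beside 25.0% and 23.8% of all genes. Deep-layer markers summed to 401 and 375 against 502, 519 and 432, with 5 of 14 higher and 4 lower (3 higher without either monosome library). Radial glia counted 6 higher and 2 lower of 15 (2 higher without monosome c1), interneurons 3 and 2 of 15 (0 lower without monosome c0, 1 without c1) and astrocytes 2 and none of 6. Intermediate progenitors counted 2 and 2 of 11, with 0 higher and 1 lower without monosome c1 and 1 higher without c0. Oligodendrocyte lineage markers counted 3 higher and 1 lower of 6 (1 higher without monosome c0, monosome c1 or polysome c1). Cajal-Retzius markers counted 2 higher and none lower of 5 (1 higher without any of these libraries or without polysome c2).

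None of the 9 microglial, 7 meningeal or 4 choroid plexus genes was called, and 1 of 9 endothelial genes was (0 without monosome c1). Of all genes 48.8% were called in either direction, and 33.8% without monosome c1. Microglial markers summed to 73.5 and 62.5 FPKM in monosomes and 58.1 to 83.7 in polysomes. Choroid plexus markers summed to 458 and 222 FPKM in monosomes and 13.8, 298 and 319 in polysome c0, c1 and c2, so polysome c0 stood apart, and its Ttr was 12.4 FPKM against 288 and 310. Without polysome c0 the whole comparison had 5341 calls, and the counts of large- and small-subunit ribosomal protein genes lower in polysomes were again 46 and 32. The part of choroid plexus tissue in other results was not tested.

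Compared with E13 in the same genotype, 959 genes differed in their polysome minus monosome effect (7.8% of 12302), with 306 more positive at P0 (2.49%) and 653 more negative (5.31%). This count rests on few libraries. It was 168 without P0 monosome c1, 196 without P0 monosome c0, 347 and 384 without P0 polysome c1 and c2, 546 without E13 monosome c2 and 1142 without E13 polysome c1. Ribosomal protein genes were further toward monosomes at P0 than at E13, with E13 medians of −1.47 (large) and −1.60 (small). For them 28 of 49 and 18 of 33 passed the test of the age difference, all more negative at P0. Without P0 monosome c0 none passed, and without P0 monosome c1 2 and 0 passed. The counts were 17 and 9 without P0 polysome c0, 6 and 1 without P0 polysome c1, 3 and 1 without P0 polysome c2, 15 and 6 without E13 monosome c1, and 10 and 4 without E13 monosome c2. Without E13 polysome c0 10 small-subunit genes passed.

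Genes of the endoplasmic reticulum (ER), where secreted and membrane proteins are made, differed between the ages in direction. This list of translocation, folding and retention genes was added after values were seen. At P0 19 of 51 were lower and none higher (median −0.59), beside 23.8% lower and 25.0% higher of all genes. Without monosome c0, monosome c1 or polysome c1 12 were lower. At E13 5 were lower and 24 higher (median 0.64), beside 22.4% lower and 22.7% higher of all genes at that age. The age difference passed for 20, all more negative at P0 (9 without P0 monosome c0 and 10 without c1), beside 5.31% of all genes more negative. Ppib, an ER prolyl isomerase, was at 307 and 303 FPKM in P0 monosomes and 70.2, 49.5 and 54.3 in P0 polysomes (−2.39, SE 0.29). At E13 it was at 168 ± 42.6 FPKM in monosomes and 208 ± 58.1 in polysomes (SD, n = 3 each; 0.30), an age difference of −2.69 (limma adjusted p 0.00148). The P0 pools did not overlap, whereas the E13 pools did.

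Tram1, a translocon component, was at 40.1 and 45.4 FPKM against 5.99, 3.44 and 4.33 at P0 (−2.99, SE 0.26), with −0.53 at E13 and an age difference of −2.46 (limma adjusted p 0.00109). Ssr4 was lower at P0 (−3.03), and Tmed2 was lower at both ages (−2.77 and −2.44). Secreted and extracellular matrix genes, also an added list, counted 7 lower and none higher of 39 at P0, below the 23.8% lower of all genes, and 9 higher and 1 lower at E13, beside 22.7% higher of all genes. At P0 3 were lower without monosome c0 and 4 without monosome c1 or polysome c1. In P0 WT neocortex 6 of the 51 ER genes were higher and 10 lower, beside 37.3% and 19.1% of all genes.

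**Figure D5:**
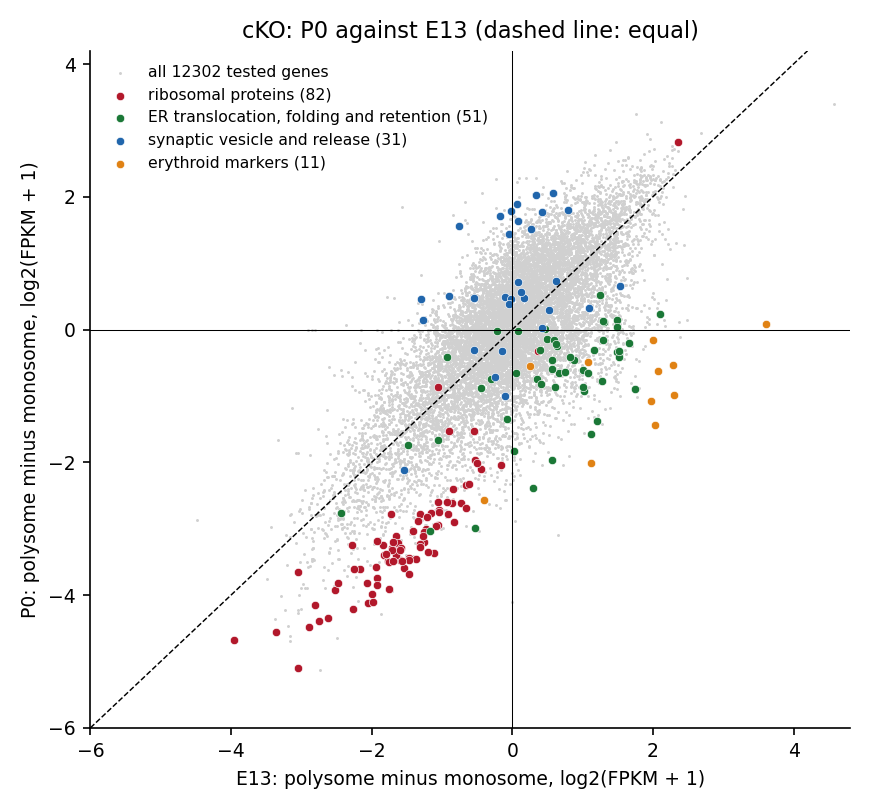
Log2 polysome minus monosome difference in cKO neocortex at E13 (x axis) and P0 (y axis) for all tested genes, with ribosomal protein, ER, synaptic vesicle and erythroid genes in colour and a dashed line of equal values. Ribosomal protein, ER and erythroid genes lie mostly below the line, and synaptic vesicle genes mostly above it.

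Red blood cell genes moved with the ER genes in the age comparison. Of 11 erythroid markers 3 were lower and none higher at P0 (median −0.62), 8 were higher and none lower at E13 (median 2.01), and 6 passed the age difference, all more negative at P0 (3 without P0 monosome c1, P0 polysome c1 or E13 monosome c2). The 3 lower at P0 are near the 23.8% of all genes, while 22.7% of all genes were higher at E13 and 5.31% more negative at P0. The erythroid list summed to 865 and 724 FPKM in P0 monosomes and 244, 351 and 256 in P0 polysomes. None of its members was at 0 in all 5 libraries. The part of blood in the ER and matrix results was not tested.

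Synaptic vesicle genes moved oppositely, with 7 of 31 more positive at P0, none more negative (3 without P0 monosome c1 or P0 polysome c1, 4 without P0 monosome c0 or P0 polysome c2), and counts at E13 of 2 higher and 5 lower. Of all genes 2.49% were more positive at P0, and at E13 22.7% were higher and 22.4% lower. Stx1a had an age difference of 1.69 (limma adjusted p 0.00511), with 5.46 ± 0.186 FPKM in E13 monosomes and 7.20 ± 0.948 in E13 polysomes (SD, n = 3 each), which overlapped with neither P0 pool. Msi1 was lower in polysomes at P0 and not at E13, where it stood at 145 ± 56.3 FPKM in monosomes and 131 ± 8.14 in polysomes (−0.09), an age difference of −2.48 (limma adjusted p 0.00183). Gabra5 also passed (−2.29, adjusted p 0.00578), but its E13 means were 0.844 and 0.385 FPKM, where the added 1 FPKM compresses any difference.

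Compared with WT at P0, no gene differed in its polysome minus monosome effect by limma (0 of 12233, 0.0%; 308 at an unadjusted p under 0.05). Those 308 were fewer than an unadjusted 0.05 passes on average where no gene differs. The test, with its spread pooled over all 31 libraries, was thus conservative, and its 0 does not decide whether the genotypes differ. The WT comparison, which shares no library with the cKO one, called 6903 genes (56.4%). The median genotype difference over all genes was −0.292 on the log2 scale and −0.002 after median ratio rescaling, under which 45 genes lay under an unadjusted 0.05. The 2 effects correlated at r = 0.972 (Spearman 0.964) across 12179 genes. Of cKO higher genes all 3076 tested in both had the same sign in WT, as did 2878 of 2914 lower genes, and none was called in opposite directions. A missed threshold does not show that the genotypes act alike, and the SE of the genotype difference was 0.40 for Elavl1 and 0.48 for Rian.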

How the data were processed

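The authors deposited 2 tables of FPKM per gene and library, 1 for cKO and 1 for WT. Libraries were made from polyA RNA with TruSeq v2 and sequenced as 2 reads of 100 bases, per the labels' protocols. TopHat2 2.0.6, Bowtie2 2.0.5.0, Cuffdiff and the build mm10 (GRCm38) are named in the submitters' processing notes, without parameters. Of 23284 rows 26 whose names had become dates or numbers were left out.

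log2(FPKM + 1) was fitted with limma 3.58.1 (R 4.3.3) with an intensity trend, over all 16 cKO libraries in 6 groups (10 residual degrees of freedom) or all 31 in 12 groups for the genotype difference, on genes with a mean of at least 1 FPKM. Tests were two-sided with Benjamini-Hochberg adjustment over all genes tested, called under 0.05. The script was tested on simulated data. Columns of the cKO table were matched to groups, not to single samples, since their numbers begin at 0 and the titles at 1.

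Named genes were Elavl1, up to 10 called genes of largest difference each way (5 each way for age; mean of at least 5 FPKM, no overlap), up to 4 members of each list by adjusted p and those against its direction, with exceptions marked in the text. The members and the 45 gene lists were chosen with earlier results of these data known, and 3 lists were added after values were seen. Positions and biotypes came from GENCODE M21 by symbol (22796 genes), and starts from RefSeq GRCm38.p6 (17540 genes). Lists are described by counts and medians only.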

Additional observations from a re-analysis of the deposited data

Results flagged for a closer look

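The 10 genes below were chosen by size among genes whose polysome minus monosome effect differed between P0 and E13 in the cKO neocortex. The choice used limma's test of the difference itself, so that each gene passes it is no separate result. In all, 653 genes were more negative and 306 more positive at P0. Bgn, a small matrix proteoglycan, had a log2 age difference of −3.75 (adjusted p 0.000643), with 65.7 and 75.2 FPKM in P0 monosomes, 9.18, 5.87 and 7.25 in P0 polysomes, and means of 22.2 and 38.2 in E13 monosomes and polysomes. The globin genes Beta-s (−3.46, adjusted p 0.0081), Hbb-b1 (−3.30, adjusted p 0.00281) and Hba-a1 (−3.13, adjusted p 0.00652) had E13 means of 28.2, 84.4 and 422 FPKM in monosomes and 111, 448 and 954 in polysomes. Globin genes have near-identical copies, so their single values are uncertain. Without P0 monosome c0, Beta-s no longer passed (adjusted p 0.0557). Stac2, an adaptor protein, had −2.93 (adjusted p 0.00148), with E13 means of 0.459 and 0.490 FPKM, where the added 1 FPKM compresses any difference.

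On the other side, Nrgn, a calmodulin-binding postsynaptic protein, had an age difference of 2.58 (adjusted p 0.0339). It no longer passed without E13 monosome c0 or c1, E13 polysome c2 or any of the P0 libraries (adjusted p 0.0514 without P0 polysome c2 to 0.16 without P0 monosome c1). Mapk8ip3, an adaptor of axonal transport, had 2.57 (adjusted p 0.00175), with means at E13 of 9.90 FPKM in monosomes and 5.28 in polysomes. Dync1i1, a dynein intermediate chain, had 2.50 (adjusted p 0.00939; 0.0753 without P0 monosome c1), and Vsnl1, a calcium sensor, had 2.49 (adjusted p 0.00882; 0.0838 without P0 monosome c1). Rhof, a small GTPase, had 2.37 (adjusted p 0.00339). The E13 means of Dync1i1 were 1.12 and 0.746 FPKM, those of Vsnl1 1.57 and 0.783, and those of Rhof 1.96 and 0.376, all near the added 1 FPKM.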

How the results depend on the processing

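The count of 6008 genes called at P0 was 5357 to 6160 under 7 settings (another pseudocount of 0.1 or 5, no filter, rescaling, no trend, genes listed at 0 left out, the block), 5173 with a mean of at least 5 FPKM, 8570 with the 5 libraries fitted alone and 4156 to 5341 with a library left out. No named gene's direction was reversed. The age count of 959 became 1500 with a pseudocount of 5, 662 with 0.1, 368 with the block, and 168 (without P0 monosome c1) to 1142 (without E13 polysome c1) with a library left out. The cause was not tested. The genotype count of 0 became 5 without a filter (Ccl5, Fate1, 9130015A21Rik, A930041C12Rik and C130080G10Rik) and 0 to 1 with a library left out (Snora2b, without cKO monosome c1). The median of genes with a pyrimidine run at the start was −0.363 when 6 pyrimidines were asked after the C and −0.048 when the run could begin within 5 bases. The replicate block on column number gave 5357 calls at P0. Whether the numbers pair libraries was not established: same-numbered monosome and polysome libraries correlated in their deviations at −0.165 and −0.274 (2 monosome libraries mirror each other), and polysome and total libraries at 0.266, 0.37 and 0.1. List medians moved in 58 of the cases of a list and a setting and stayed in 558. The unknown depth limits values near 0.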
